A study of Mus musculus with 2 samples.

Results

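Among the sorted T cells, the eleventh and the twelfth largest T cell receptor beta (TRB) families are described here, each apart from the other. A family is the set of RNA barcodes that carried exactly 1 productive TRB sequence in the receptor library with a given CDR3, the stretch of the receptor chain that is made anew in each T cell. The first family used the segments TRBV12-2 and TRBJ1-1 and held 60 barcodes. The second used TRBV13-3 and TRBJ2-7 and held 50. Together these were 110 of the 10387 barcodes of the RNA library, and 3775 other barcodes also had exactly 1 productive TRB. Segment names are used below for both families, always V and J together, because other families share the V segments.

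The cells were mouse T cells with a Cas9 transgene that had been activated and infected with a retrovirus directed against Bcor and Zc3h12a, which also delivered the 14g2a CAR, a synthetic receptor for the ganglioside GD2. At 2 months after transfer of 1000000 such cells per mouse into immunocompetent C57BL/6 mice, 1000000 CD8+Thy1.1+ cells were sorted from spleen and loaded on a Singleron microwell chip. There was 1 RNA library and 1 receptor library, with no untreated group, and the sources used here do not give the number of mice. All cells share the transgene, the virus and the transfer, so every value below compares cells of 1 library, without replicates and without a test.

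Each developing T cell joins V, D and J segments into a TRB gene and V and J segments into a TRA gene, and trims and adds bases at the joints. Daughter cells inherit the joined genes, so cells with the same CDR3 bases are usually descendants of 1 cell. TRBJ1 segments are spliced to the constant gene Trbc1 and TRBJ2 segments to Trbc2. A T cell can join TRA on both chromosomes, and for that reason a clone can carry a pair of TRA chains.

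The CDR3 base sequences define the families and are shown first, each with the TRA CDR3 that was most often found with it. Capitals mark the bases between a leading and a trailing run. The leading run was shared by at least 50% of the other CDR3s of the same V segment. The trailing run was shared by at least 50% of those of the same J segment. Capitals thus lie at the joint, and can include V or J segment bases that fewer than 50% of the other CDR3s kept.
TRBV12-2 TRBJ1-1 family, TRB: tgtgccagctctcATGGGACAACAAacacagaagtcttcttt
TRBV12-2 TRBJ1-1 family, TRA: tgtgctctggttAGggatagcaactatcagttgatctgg
TRBV13-3 TRBJ2-7 family, TRB: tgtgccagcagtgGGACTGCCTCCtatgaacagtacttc
TRBV13-3 TRBJ2-7 family, TRA: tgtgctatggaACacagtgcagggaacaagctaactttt

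The first TRB has 42 bases with 12 in capitals, and the second has 39 bases with 11. Both TRA chains have 2 bases in capitals, with TRAV6-4 and TRAJ33 in the first family and TRAV13-4-DV7 and TRAJ17 in the second. Only 3 other CDR3s of TRAV6-4 were at hand to set its leading run. Within each family every barcode had the same TRB bases. No other productive TRB CDR3 of the library came within 2 bases of either, and the TRA of the second family had 1 other CDR3 within 1 base.

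After the filter on cells, 59 cells of the TRBV12-2 TRBJ1-1 family and all 50 of the TRBV13-3 TRBJ2-7 family remained. The 1 barcode that was lost had 21.4% mitochondrial UMIs (UMIs are molecule counts). The families made up 1.52% (1.16 to 1.96) and 1.29% (0.957 to 1.69) of the kept cells with exactly 1 TRB. Here and below, ranges in brackets are 95% intervals that cover counting error only. The next larger family had 77 cells and the next smaller one 40.

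Both families were shallow in total, which limits what can be seen. The TRBV12-2 TRBJ1-1 cells held 150240 UMIs, with a median of 2251 per cell (864 in the lowest and 5807 in the highest) against 2060 in the other TRB cells. The TRBV13-3 TRBJ2-7 cells held 91810 UMIs, with a median of 1732.5 (883 to 3903) against 2073.5. Levels are given as UMIs per 1000000 UMIs (CPM), so 1 UMI over the whole family is worth 6.66 CPM in the first family and 10.9 CPM in the second. The median mitochondrial share was 3.71% and 3.49%, against 3.45% in the other TRB cells of each comparison. Ribosomal protein genes took 20.8% of UMIs in the first family and 17.6% in the second, against 17.5% in the others.

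Every one of the 59 and 50 cells had UMIs of at least 2 of 8 fixed markers of CD8 T cells, for which the cells were sorted. So had 99.97% of the other TRB cells. The 8 include Cd3 and receptor constant genes, and the members were chosen by their TRB, so this share does not bear on CD8 itself. Cd8a had a UMI in 26 of the 59 cells and 8 of the 50. The summed levels of the NK cell, gamma delta T cell, neutrophil and platelet markers were 0 in both families. In the other TRB cells they were at most 3.70 CPM, less than 1 UMI is worth in either family. At this depth these 0 values cannot set the families apart from the others. At least 2 of 9 B cell markers were found in 13 cells (22.0%) of the first family and 7 (14.0%) of the second, against 17.6% and 17.7% of the other TRB cells. The defining B cell markers Cd79a and Ms4a1 were at 0 in both families. No cell of either family had 2 cycling markers, against 0.50% of the others, a share too small to tell from 0 in 59 or 50 cells. At least 2 of 10 effector markers were found in 50.8% and 52% of the cells, against 58.5% of the others. Their summed levels were 2170 and 3170 CPM. Of these markers Gzma, Fasl and Klrg1 were at 0 in both families. Sostdc1 and Mt1, the genes given as marks of these families, had UMIs in both, but in different ways that are described below.

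The transcripts of both targeted genes were still counted. Bcor, a corepressor of a noncanonical Polycomb complex, stood at 166 CPM in the TRBV12-2 TRBJ1-1 family and 142 CPM in the TRBV13-3 TRBJ2-7 family, against 162 and 163 CPM in the other TRB cells. Zc3h12a, the gene of Regnase-1, an enzyme that degrades RNA, stood at 113 CPM (65.9 to 181) in the first family, from 17 UMIs, a ratio of 2.34 (1.35 to 3.79) to the other TRB cells. That was the first rank among the 19 TRB families of at least 30 cells, but the intervals of 14 of the other 18 overlapped it. In the second family it was 43.6 CPM (11.9 to 112). Counts of transcript ends do not check an edit in the coding sequence.

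The pairing of TRA chains differed between the families. In the TRBV12-2 TRBJ1-1 family, 55 cells had a TRA and 24 of them (43.6%, 30.3 to 57.7) had the TRA printed above. The other 31 carried other TRA chains, and 17 distinct TRA CDR3s were found in the family in all. The next most frequent were the main TRA of the largest family in 8 cells, the main TRA of the fourth largest (also that of the thirteenth) in 7 and that of the second largest in 5. In total 28 cells carried the main TRA of another family of at least 30 cells, and 26 of these lacked their own family's main TRA. Across the 18 other families the share of TRA-bearing cells with the family's main TRA ran from 29.9% to 96.3% with a median of 73.2%, and only 1 of the 18 was below the TRBV12-2 TRBJ1-1 family.

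In the contigs, the printed TRA of this family was thin. It had a median of 2 UMIs per cell (1 to 10), while the other TRA chains in the same family had a median of 9 (1 to 24) in 39 cells, and the family's TRB had a median of 21 (4 to 48). The RNA library showed low TRA in the same cells: Trac, the constant part of the alpha chain, stood at 865 CPM (723 to 1027) against 1624 in the other TRB cells, a ratio of 0.53 (0.44 to 0.63). Of the 19 families this one had the lowest Trac level, and 16 others lay above its interval. Trac was low with the printed TRA (1110 CPM, 847 to 1429) and with other TRA chains alone (767 CPM, 598 to 969), and the 4 cells without a TRA contig had 0 Trac UMIs.

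Of the TRBV13-3 TRBJ2-7 cells 47 had a TRA, and 31 of them (66.0%, 50.7 to 79.1) had the printed one. It had a median of 8 UMIs per cell (1 to 17), the same as the other TRA chains in the family (8, 3 to 18, in 21 cells). Here 16 cells had other TRA chains alone, 12 of them with the main TRA of another family. The Trac level was 1830 CPM (1564 to 2128), a ratio of 1.14 (0.97 to 1.32). Cells with 2 productive TRA numbered 9 in the first family and 8 in the second. The deposited clonotype table, which groups by both chains, split the first CDR3 into 29 clonotypes over 72 receptor barcodes, the largest of 17, and the second into 14 over 56, the largest of 26.

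The constant genes in the RNA library followed the J segments. The TRB by which the members were chosen holds its J segment, so this outcome was set by the choice. Trbc1 made up 85.3% (81.6 to 88.5) of Trbc1 and Trbc2 UMIs in the TRBV12-2 TRBJ1-1 cells with the printed TRA, and 79.4% (76.0 to 82.5) in those with other TRA chains alone. The other TRB cells had 47.4%. In the TRBV13-3 TRBJ2-7 family, which uses a TRBJ2 segment, the Trbc1 share was 6.02% (3.85 to 8.90) with the printed TRA and 11.5% (7.53 to 16.7) with other TRA chains alone. In both families the constant gene of the family's TRB made up most of these UMIs with either kind of TRA, as the choice by TRB sets. Trbv13-3 had 7 UMIs in its own family, 17.0-fold over the other TRB cells (6.43 to 38.5), and 0 in the TRBV12-2 TRBJ1-1 family. Trbv12-2 had 12 UMIs in its family, 2.67-fold higher (1.36 to 4.74), but also 8 in the TRBV13-3 TRBJ2-7 family, 2.89-fold higher. Each of these V segments has close copies within its own group, between which reads can be split. The source of the Trbv12-2 UMIs in the TRBV13-3 TRBJ2-7 family was not tested.

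Wasf2 set the TRBV12-2 TRBJ1-1 family apart from every other family. It encodes WAVE2, which activates the Arp2/3 complex to build branched actin, including at the contact of a T cell with its target. The gene lies on chromosome 4 (chr4:133130531-133199748 in RefSeq on GRCm38.p6) and spans the microRNA gene Mir7017. Its level was 1258 CPM (1085 to 1451), from 189 UMIs, against 152 CPM (144 to 160) in the other TRB cells. The ratio was 8.28 (7.07 to 9.65). The next family stood at 243 CPM (139 to 395), and the intervals of all 18 other families lay below that of this one.

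**Figure D1:**
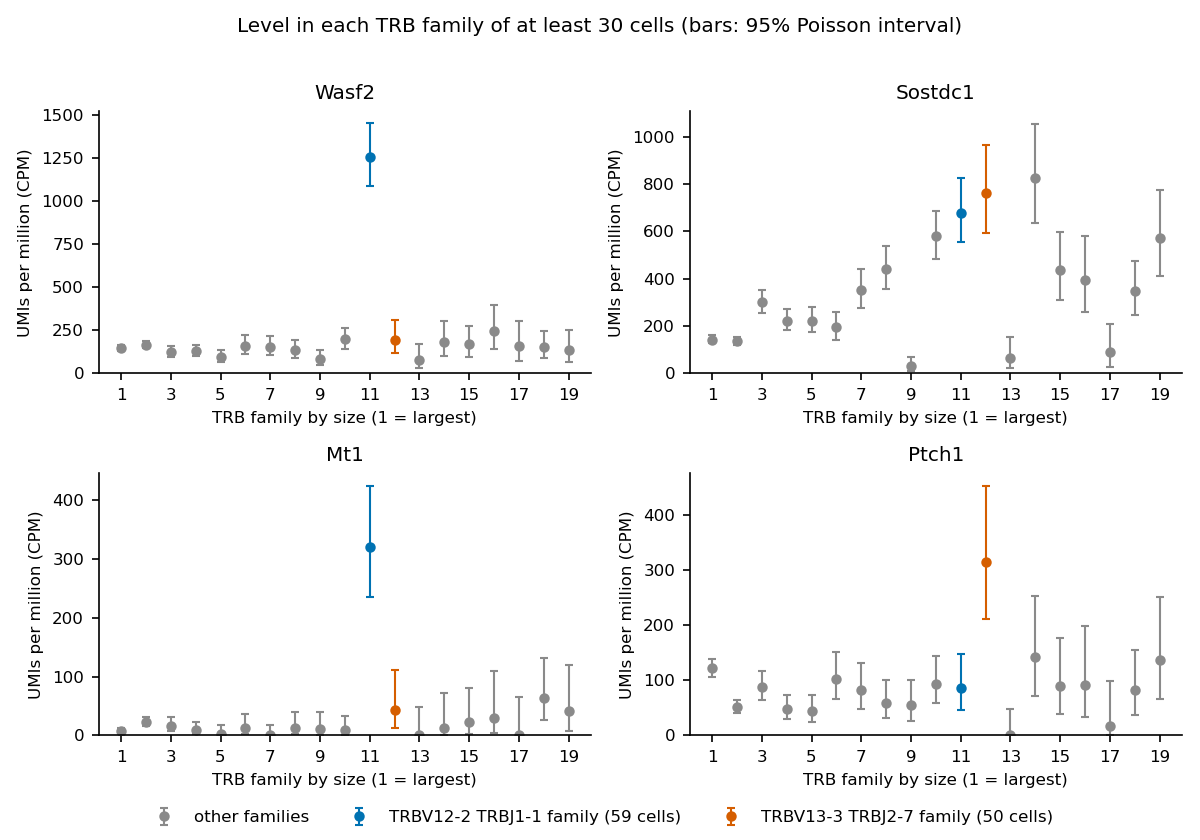
Level of Wasf2, Sostdc1, Mt1 and Ptch1 (CPM) in each of the 19 TRB families of at least 30 cells, ordered by size from the largest on the left. Points are levels of summed UMIs and bars are 95% Poisson intervals. The TRBV12-2 TRBJ1-1 family (blue) stands at 1258 for Wasf2 and 319 for Mt1, above all 18 others, and the TRBV13-3 TRBJ2-7 family (orange) stands at 316 for Ptch1, with 142 in the next family. For Sostdc1 both are among several high families.

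The high Wasf2 level was spread over the cells. Of the 59 cells, 52 (88.1%, 77.1 to 95.1) had a UMI, the median was 3 and the highest cell had 16, which is 8.47% of the family's Wasf2 UMIs. Among the other TRB cells 25.0% had a UMI, with a median of 0 and a highest cell of 6. As a background for such shares, 16 cells outside the group with exactly 1 TRB had UMIs of at least 2 of the 3 B cell genes Cd79a, Cd79b and Ms4a1. Of these 16 B-lineage marked cells, 12.5% had a Wasf2 UMI at a median of 2185 UMIs per cell. With each cell thinned to 1000 UMIs the shares were 60.7% (46.8 to 73.5) in the family, with 3 shallower cells left out, and 13.0% in the cells of neither family, with 136 left out.

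High Wasf2 went with the TRB, whichever TRA was found beside it. The 24 cells with the printed TRA had 1610 CPM (1290 to 1986), in 22 of the cells. The 31 with other TRA chains alone had 1030 CPM (833 to 1261), in 26 of the cells, and the 4 cells without a TRA had 1611 CPM (695 to 3174). Each of these lies above the level of the other TRB cells. The level was lower with other TRA chains than with the printed one, and those cells were also deeper, with a median of 2837 UMIs against 2180. The part that RNA from other cells, or barcodes with more than 1 cell, had in this difference was not tested.

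Cells with many Wasf2 UMIs were rare elsewhere among cells with a TRB. At least 5 Wasf2 UMIs were counted in 14 of the 59 cells of the family (23.7%) and in 5 of 3823 other cells with exactly 1 TRB (0.131%). A further 37 such cells were among the 6212 kept barcodes without a productive TRB (0.596%), whose family is not known. The partners of WAVE2 did not share the pattern. Rac2, the GTPase that acts on the complex in blood cells, stood at 1558 CPM against 1746 (ratio 0.89, 0.78 to 1.01), Abi1 at a ratio of 1.09 (0.65 to 1.70), Brk1 at 1.34 (0.99 to 1.78), Nckap1l at 0.86 (0.35 to 1.79) and Cyfip2 at 0.64 (0.29 to 1.22). Arpc2, a subunit of Arp2/3, had a ratio of 1.05 (0.86 to 1.26). These 6 genes were chosen after the level of Wasf2 had been seen.

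**Figure D2:**
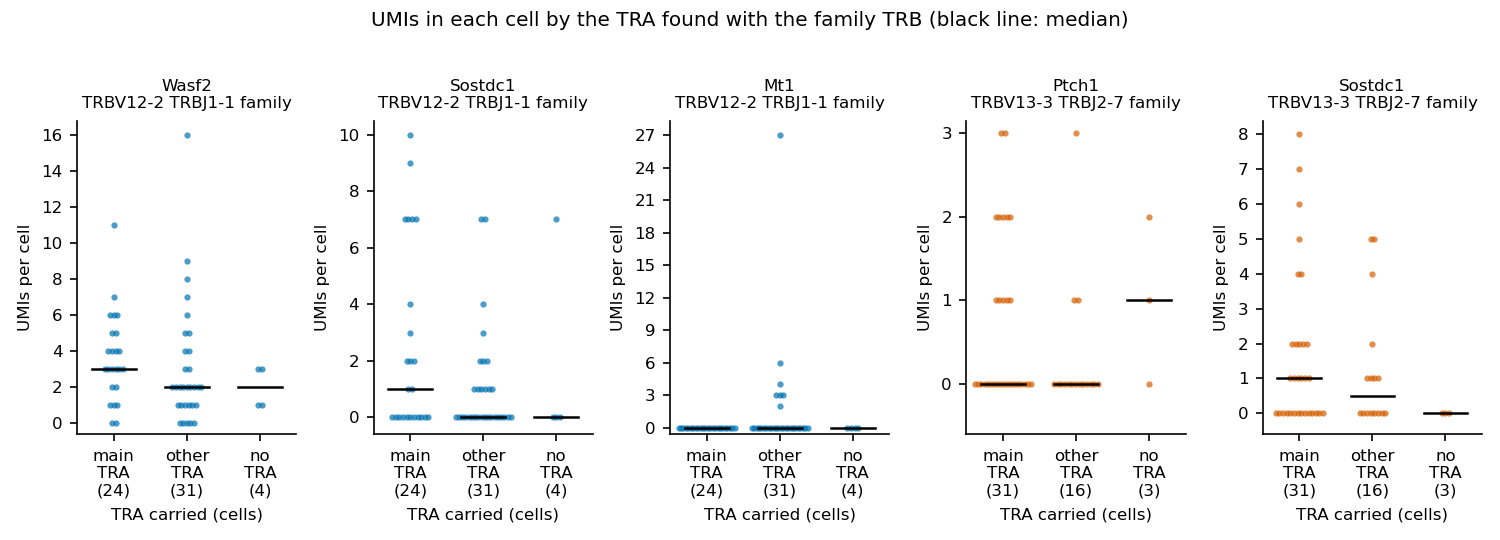
UMIs of a gene in every cell, split by the TRA found with the family's TRB: the most frequent one, another one alone, or none, with the number of cells in brackets. Each point is 1 cell and black lines are medians. In the TRBV12-2 TRBJ1-1 family (blue) Wasf2 is spread over cells of every kind, while Mt1 is found in 7 cells, all with other TRA chains, with 27 UMIs in 1 of them. In the TRBV13-3 TRBJ2-7 family (orange) Ptch1 and Sostdc1 are found with either kind of TRA.

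Mt1, by contrast, came from few cells. It encodes a metallothionein, a small protein that binds zinc and copper, and lies on chromosome 8 (chr8:94178883-94180327). Its level in the TRBV12-2 TRBJ1-1 family was 319 CPM (236 to 424) against 24.9, a ratio of 12.9 (9.20 to 17.6) and the highest of the 19 families, of which the next stood at 63.9 CPM. The 48 UMIs lay in 7 cells (11.9%, against 2.43% of the other TRB cells and 0 of the 16 B-lineage marked cells, which allows up to 20.6%). One cell held 27 of them, and without it the ratio was 5.70. That cell had 0 Wasf2 UMIs and the main TRA of the second largest family. The other 6 had between 2 and 6 Mt1 UMIs, and between 2 and 9 of Wasf2.

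None of the Mt1 UMIs lay in the 24 cells with the printed TRA, where the interval reached 68.3 CPM. All 7 cells had other TRA chains alone, and 4 of them had the main TRA of the second largest family. Their median was 4103 UMIs per cell, against 2212.5 in the cells without Mt1. Mt2, the neighbouring metallothionein, had 4 UMIs, all in the cell with 27 of Mt1. Of the 23 metal and oxidative stress genes on the fixed list, 8 had enough UMIs to count and none was 1.5-fold higher or lower, with a median ratio of 0.91. Over all countable genes 5.01% were higher and 15.1% lower. Ftl1, the ferritin light chain, was at 1.21 (0.98 to 1.49) and Txn1, thioredoxin, at 1.05 (0.79 to 1.37). Mt1 thus marked a few cells of the family, not the family as a whole.

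Sostdc1 was higher in both families, though not in them alone. It encodes a secreted antagonist of BMP and Wnt ligands that follicular helper T cells are known to express, and lies on chromosome 12 (chr12:36314169-36318452). In the TRBV12-2 TRBJ1-1 family it stood at 679 CPM (554 to 824) against 231, a ratio of 2.94 (2.39 to 3.59), with UMIs in 27 of 59 cells (45.8%, against 19.5%). It stood at 762 CPM (594 to 963) in the TRBV13-3 TRBJ2-7 family against 233, a ratio of 3.27 (2.54 to 4.16), with UMIs in 25 of 50 cells (50%, against 19.5%). Of the 16 B-lineage marked cells, 6.25% had a UMI. Levels ran from 32.7 to 826 CPM over the families, with ranks of 3 and 2 for these, and the intervals of 6 and 5 families overlapped theirs.

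Within each family Sostdc1 was uneven. In the TRBV12-2 TRBJ1-1 family 32 cells had none and the highest had 10 UMIs. Its level was 1147 CPM (880 to 1471) with the printed TRA and 362 CPM (249 to 508) with other TRA chains alone. In the TRBV13-3 TRBJ2-7 family the highest cell had 8 UMIs, and the levels were 831 CPM (617 to 1096) and 727 CPM (444 to 1122). Weighting the other families equally brought the ratios to 2.00 and 2.28. Set against each other, the families had a ratio of 0.89 (0.65 to 1.22), so no difference could be seen at this depth.

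Over all genes, 2575 had at least 10 UMIs expected in the TRBV12-2 TRBJ1-1 family from their level in both groups. Of these, 129 (5.01%) were at least 1.5-fold higher by their point ratio and 389 (15.1%) at least 1.5-fold lower, with a median ratio of 0.96. The 15 genes named as higher were ranked by the lower bound of their ratio, and most of them were below that number of expected UMIs and entered through 10 or more UMIs in the family itself. Such a gene had to be high to be named. The names are therefore a description.

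Podnl1, a gene for a leucine-rich matrix protein, had the highest ratio, 18.3 (8.98 to 34.8), at 86.5 CPM against 4.74. Its 13 UMIs lay in 11 cells (18.6%, against 0.863%), 5 of them with the printed TRA and 6 with others. The other families ranged from 0 to 21.8 CPM. Podnl1 overlaps Cc2d1a on chromosome 8 (chr8:84125928-84142991), so reads could be shared between them. The RNA processing and nucleotide genes Dimt1, which methylates ribosomal RNA, Dis3, a nuclease of the RNA exosome, and Gmpr2, a GMP reductase, had ratios of 4.14 (2.16 to 7.25), 4.05 (1.90 to 7.68) and 4.08 (1.92 to 7.73), each from 10 to 13 UMIs in 7 cells.

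Card19, which encodes a protein with a caspase recruitment domain, stood at 173 CPM (113 to 254) against 52.9, a ratio of 3.27, in 18 cells. It was highest in this family, above the intervals of 15 of the other 18. Zfp131, a zinc finger regulator, had a ratio of 3.47 (2.17 to 5.28) and lay above 11 families. The chromatin reader Phf6 (2.6), muskelin or Mkln1 (2.75), the Ral exchange factor Ralgps2 (3.64), Ttc32 (4.09), Gm6093 (3.77) and the interferon-induced Rtp4 (2.89) complete the 15. For Mkln1 the ratio was 1.46 in the cells with the printed TRA.

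**Figure D3:**
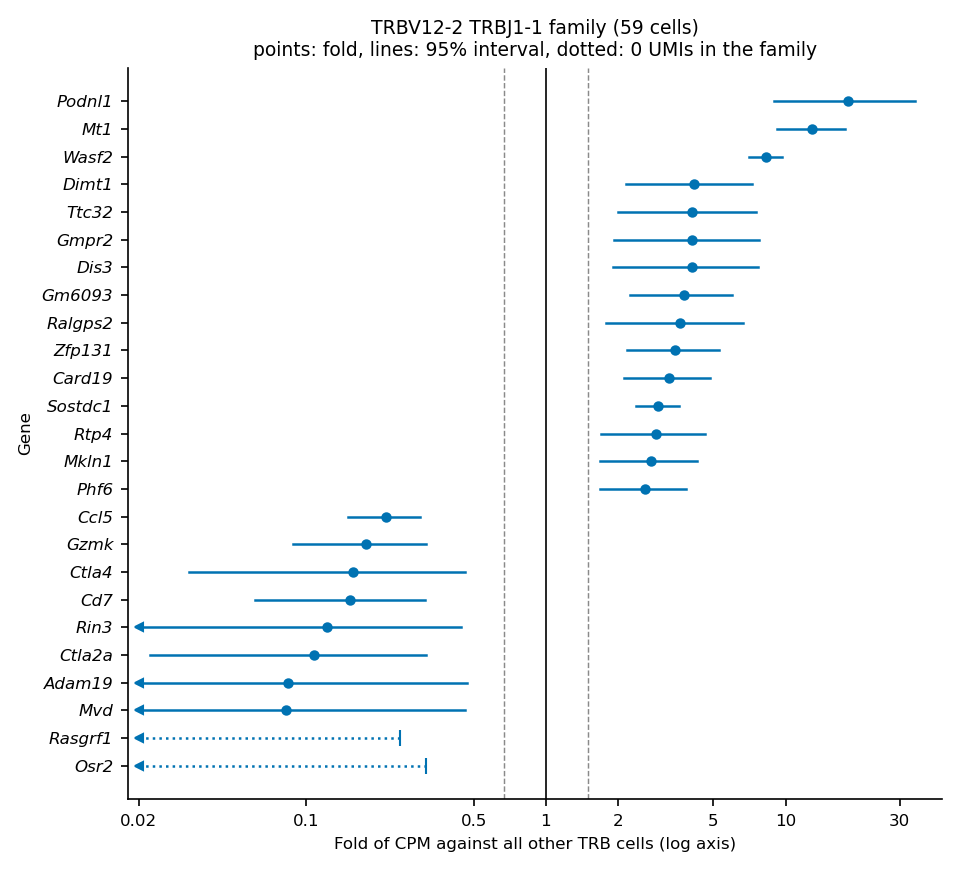
Ratio of the level in the 59 cells of the TRBV12-2 TRBJ1-1 family to that in all other TRB cells (log axis) for the 15 genes named as higher and the 10 named as lower. Points are ratios, lines 95% intervals, dashed lines 1.5-fold either way, arrows intervals that reach past the axis, and dotted lines genes with 0 UMIs in the family, drawn to the upper bound. Podnl1 (18.3), Mt1 (12.9) and Wasf2 (8.28) stand above the other named genes.

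The lower genes of the TRBV12-2 TRBJ1-1 family included effector and regulatory genes. Ccl5, an inflammatory chemokine, stood at 233 CPM against 1084, a ratio of 0.215 (0.150 to 0.299), and 18 of its 35 UMIs lay in 1 cell. Its level ran up to 3281 CPM in another family with a median of 304 over the 18 others, of which 10 overlapped this one. Gzmk, the granzyme of memory-like CD8 T cells, stood at 73.2 CPM against 414, a ratio of 0.177 (0.0881 to 0.317), in 8 cells. Cd7, a T cell surface protein, stood at 46.6 CPM (18.7 to 96.0) against 306, the lowest of the 19 families, with 10 above its interval. Ctla4, an inhibitory receptor, had 3 UMIs and a ratio of 0.157 (0.0324 to 0.461), and Ctla2a, a cathepsin inhibitor, had 3 UMIs and a ratio of 0.108 (0.0222 to 0.316).

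Several of these low ratios rested on the large families in the comparison. Without the 2 largest families Ctla2a was at 0.31, Gzmk at 0.30, Ctla4 at 0.25 and Mvd, an enzyme of the mevalonate pathway with 1 UMI here, at 0.60. Mvd stood at 320 CPM in the largest family and at a median of 10.9 CPM over the 18 families other than this one. Osr2, a developmental transcription factor, had 0 UMIs, at least 3.91-fold lower, and only 2 families lay above its interval. Rasgrf1, a Ras exchange factor, had 0 UMIs as well, at least 5.01-fold lower, while all 18 other families had some and 9 lay above its interval. Rin3, a Rab5 exchange factor, had 2 UMIs (ratio 0.122, 0.0148 to 0.443) and the metalloprotease Adam19 had 1 (0.0836, 0.00211 to 0.467).

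Lower members without higher ones were seen in several lists, beside 15.1% lower and 5.01% higher over all countable genes. These included the cytokines and chemokines, with 2 of 4 countable genes lower and a median of 0.60, and the cytotoxic and homing lists. Of 12 cytotoxic genes 7 could be counted, with 0 higher, 3 lower and a median ratio of 0.71. Besides Gzmk these were the pore former Prf1 (0.48, 0.28 to 0.77) and Nkg7, a granule membrane protein (0.64, 0.57 to 0.73). Of 14 countable homing and adhesion genes 6 were lower and 0 higher, with a median of 0.83. Among them were Cd44, the hyaluronan receptor (0.40, 0.16 to 0.84), the chemokine receptor Cxcr3 (0.26, 0.05 to 0.77), the integrin subunit Itgb2 (0.60, 0.41 to 0.84) and Cxcr5 (0.53, 0.26 to 0.99). The median over all countable genes was 0.96, as above.

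The called memory genes went in both directions. Of 13 countable genes 2 were higher and 1 lower, beside 5.01% and 15.1% of all countable genes. Higher were Il7r, the receptor for the survival cytokine IL-7, at 166 CPM (108 to 246) against 72.1 (2.31, 1.48 to 3.44), and the transcription factor Foxo1 (1.58, 1.05 to 2.28). Ccr7, the lymph node homing receptor, was lower at 0.39 (0.11 to 1.01), from 4 UMIs. Tcf7 and Lef1, which keep T cells in a stem-like state, were at 1.08 (0.88 to 1.32) and 1.05 (0.80 to 1.37). Of 6 countable survival genes Mcl1 was higher (1.52, 1.14 to 2.00) and Bax, which promotes cell death, was lower (0.63, 0.40 to 0.94).

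The coreceptor genes Cd8a (1.42, 1.04 to 1.90) and Cd8b1 (1.38, 1.10 to 1.72) were close under 1.5-fold higher. Cd2, an adhesion and costimulatory receptor, was at 0.37 (0.17 to 0.70) and Lat, an adaptor of receptor signalling, at 0.54 (0.37 to 0.75). The 14 T cell identity genes thus had 0 higher and 2 lower. Over all countable genes 5.01% were higher and 15.1% lower, which stands beside each list here. Of 8 countable receptor signal genes Rel (1.75, 1.05 to 2.76), a subunit of NF-kB, and the phosphatase Dusp2 (1.59, 1.27 to 1.98) were higher, and 2 were lower. Among 12 AP-1 and heat shock genes Jun was higher (1.74, 1.47 to 2.05). Ikzf3, which encodes the transcription factor Aiolos, was at 1.57 (1.28 to 1.90). Of 10 countable interferon response genes the GTPases Tgtp2 (2.04, 1.36 to 2.95) and Igtp (1.67, 1.10 to 2.45) were higher and 0 were lower.

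Of the 12 antigen presentation genes only H2-Q7 was past 1.5-fold, at 0.58 (0.49 to 0.69), with a list median of 0.79. For 9 countable glycolysis genes and 16 oxidative phosphorylation genes the medians were 1.00 and 0.96, with 1 lower gene in each. Over all countable genes 15.1% were lower. Malat1, a nuclear RNA named after its value had been seen, stood at 7694 CPM (7257 to 8151) against 12313. No other family had a lower level, and the intervals of 4 overlapped. The cells with the printed TRA had 7680 CPM and those with other TRA chains alone 7584, so this low level was shared by both.

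**Figure D4:**
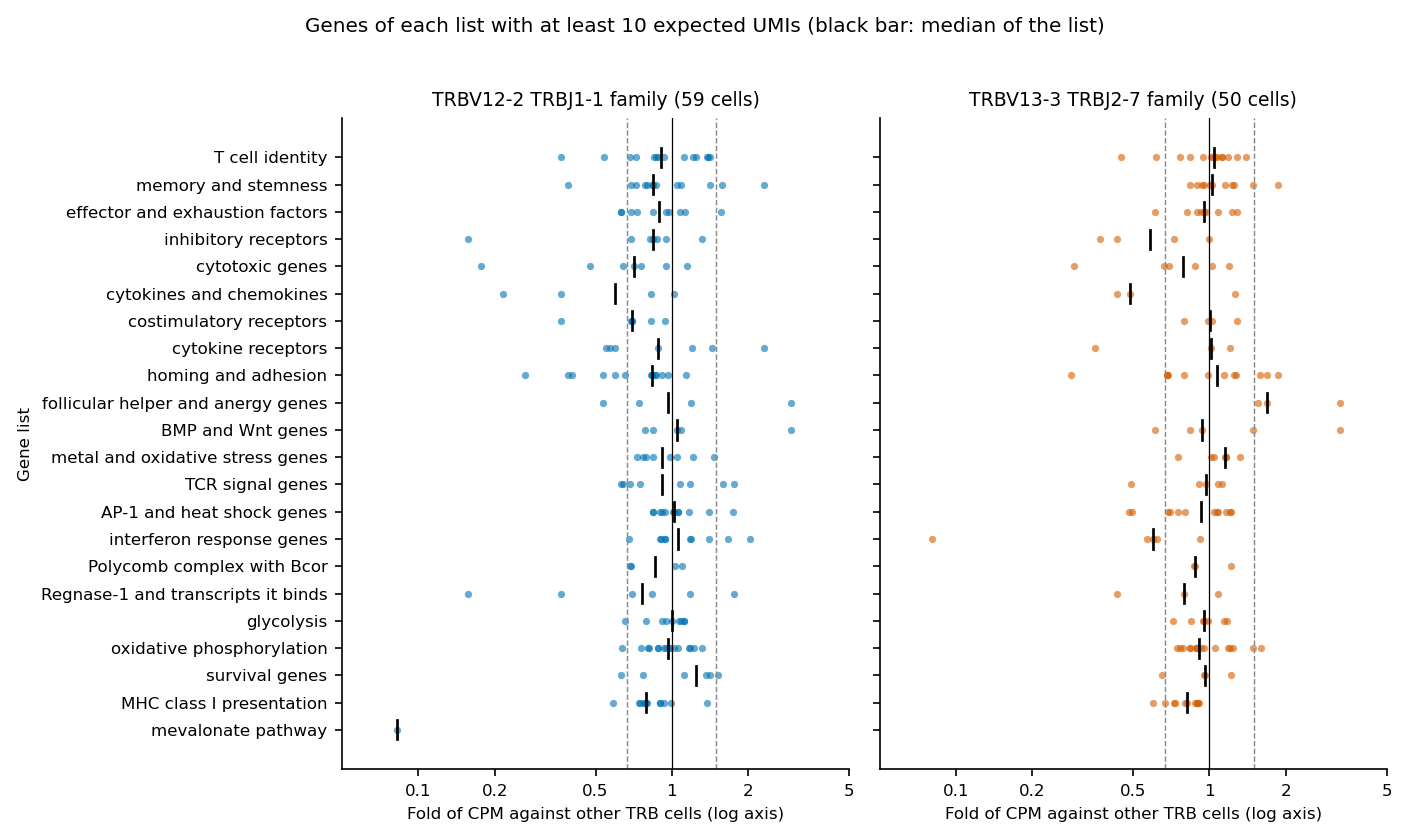
Ratio to all other TRB cells (log axis) for the genes of each fixed list with at least 10 expected UMIs, in the TRBV12-2 TRBJ1-1 family (left, blue) and the TRBV13-3 TRBJ2-7 family (right, orange). Each point is a gene, black bars are list medians and dashed lines mark 1.5-fold either way. Cytotoxic genes have medians of 0.71 and 0.78 in the 2 families, and interferon response genes 1.06 and 0.60.

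The leading gene of the TRBV13-3 TRBJ2-7 family was Ptch1, the receptor for Hedgehog ligands, which in their absence holds the pathway off. The gene lies on chromosome 13 (chr13:63508328-63573460). Its level was 316 CPM (212 to 454) against 78.1 in the other TRB cells, a ratio of 4.05 (2.69 to 5.86). The next family stood at 142 CPM (70.9 to 254), and 16 of the 18 others lay below its interval. The 29 UMIs lay in 17 of 50 cells (34.0%, 21.2 to 48.8, against 13.4%) with at most 3 in a cell, and in 0 of the 16 B-lineage marked cells. After thinning the shares were 25.0% (13.6 to 39.6) and 6.74%.

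Ptch1 was found with either kind of TRA, at 349 CPM (216 to 534) with the printed one and 182 CPM (59 to 424) with others alone, from 5 UMIs. In the TRBV12-2 TRBJ1-1 family it stood at 86.5 CPM, the tenth of the 19. Gli1, a target by which Hedgehog signalling is usually read, had 0 UMIs in all cells with exactly 1 TRB.

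Of 1504 genes with at least 10 expected UMIs in this family, 73 (4.85%) were at least 1.5-fold higher and 184 (12.2%) at least 1.5-fold lower, with a median ratio of 0.99. Ptch1, with 7.40 expected UMIs, and most other higher genes named here were below 10 expected UMIs. They entered through 10 or more UMIs in the family itself, so such a gene had to be high to be named. Besides Ptch1 and Sostdc1, the higher genes named here had from 10 to 33 UMIs each. They included Gzf1, a zinc finger regulator (4.58, 2.17 to 8.60), the deubiquitinase Zranb1 (4.06, 2.00 to 7.39), Pno1, which acts in ribosome assembly (3.73, 1.84 to 6.77), Rad50, of the DNA break repair complex (2.89, 1.60 to 4.81), and Orc4, of the origin recognition complex (3.16, 1.56 to 5.73). Ccdc85b, Creg1, Aspscr1, Rbfa, 4930581F22Rik, Gm23935 and Vps26b, a retromer subunit, had ratios between 2.51 and 3.70. Vps26b had a ratio of 0.975 in the cells without the printed TRA, which were 16 with other TRA chains alone and 3 with none. With 11 Vps26b UMIs in the whole family, this ratio is too uncertain to place the call in either kind of cell. In the cells with the printed TRA Gzf1 was at 2.10 and 4930581F22Rik at 1.42.

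**Figure D5:**
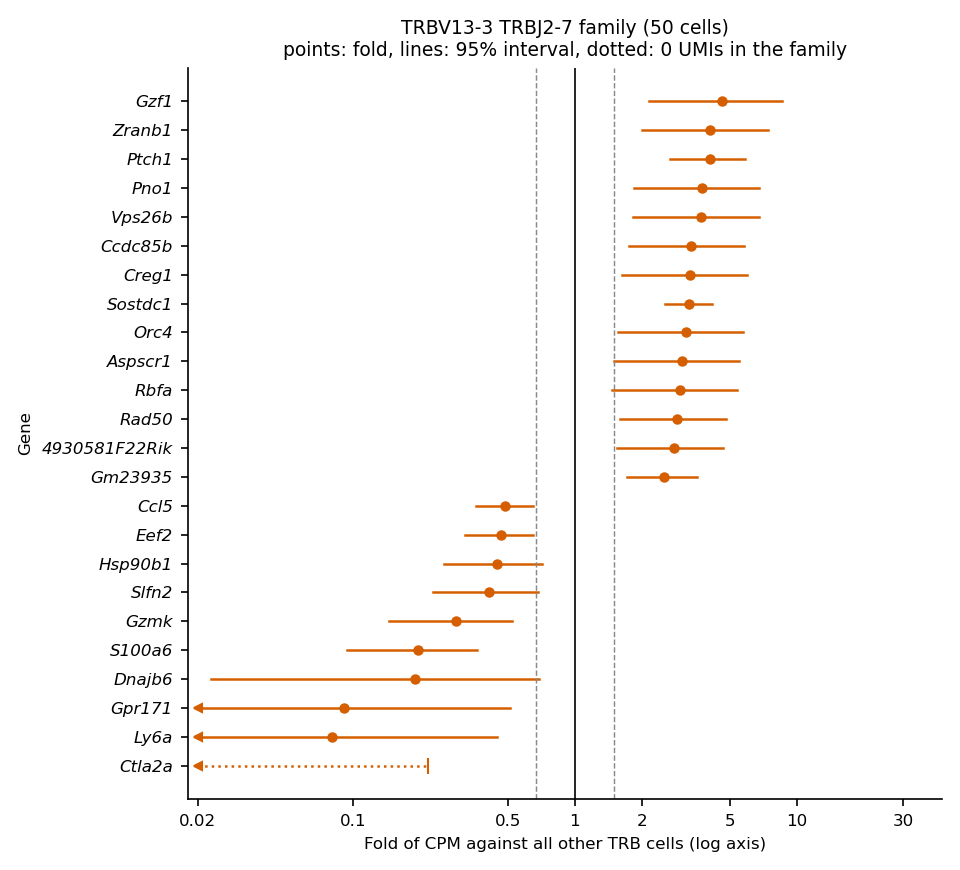
Ratio of the level in the 50 cells of the TRBV13-3 TRBJ2-7 family to that in all other TRB cells (log axis) for 14 genes named as higher and the 10 named as lower, drawn as for the other family. Ptch1 (4.05) and Sostdc1 (3.27) have the highest lower bounds of those shown (2.69 and 2.54), and Ctla2a (dotted) has 0 UMIs in the family.

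The lower genes included marks of activation and effector state. S100a6, a calcium-binding protein that rises in effector and memory T cells, stood at 109 CPM (52.2 to 200) against 554, a ratio of 0.197 (0.0942 to 0.362), and 14 of the 18 other families lay above its interval. Ly6a, the surface protein Sca-1, had 1 UMI, a ratio of 0.0802 (0.00203 to 0.448), though its level is carried by few families, with 423 CPM in the highest and a median of 46.6 over the others. Gpr171, a receptor that dampens T cell responses, had 1 UMI as well (0.0909, 0.00230 to 0.508), and 11 families lay above it. Ctla2a had 0 UMIs, at least 5.63-fold lower, but its level too is carried by few families, with 501 CPM in the highest and a median of 42.1 over the others, and 11 of the 18 overlapped this one.

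Gzmk stood at 120 CPM against 412, a ratio of 0.291 (0.145 to 0.522) that became 0.50 without the 2 largest families. Ccl5 stood at 523 CPM against 1075 (0.486, 0.358 to 0.645), but 19 of its 48 UMIs lay in 1 cell, and the ratio was 0.30 without it. The pooled level was carried by few families: 5 lay above this one and 11 below it, the median over the 18 was 272 CPM, and a UMI was found in 40% of its cells against 33.5%. Ccl5 was at 249 CPM (140 to 411) in cells with the printed TRA and 1199 CPM (825 to 1684) in those with other TRA chains alone. Eef2, the translation elongation factor, was lower in this family than in any other, at 370 CPM (256 to 517) against 799, and 16 of the other 18 lay above its interval. Hsp90b1, a chaperone of the endoplasmic reticulum (0.444, 0.258 to 0.712), Slfn2, needed for T cell quiescence (0.411, 0.230 to 0.679), and Dnajb6, a cochaperone with 2 UMIs (0.190, 0.0230 to 0.689), were also lower.

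The coreceptor was lower in this family than in the pooled other TRB cells. Cd8a stood at 98.0 CPM (44.8 to 186) against 219, a ratio of 0.45 (0.20 to 0.85), and was found in 8 of 50 cells (16.0%, against 30.7% of the cells of neither family, and 12.5% of the 16 B-lineage marked cells). Cd8b1 stood at 251 CPM (159 to 376) against 408 (0.61, 0.39 to 0.92). The CD4 T cell markers were at 0, against 8.04 CPM in the other TRB cells, which is less than the 10.9 CPM of 1 UMI here. The other 12 identity genes ranged from 0.77 to 1.40, among them Cd3e at 1.05 (0.89 to 1.24) and Thy1 at 0.94 (0.70 to 1.25).

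Among the lists, only 3 of the 15 follicular helper and anergy genes were countable in the TRBV13-3 TRBJ2-7 family. All 3 were higher, with a median of 1.69, beside 4.85% of all countable genes. One was Sostdc1, given as a mark of the families. The others were Cxcr5, the receptor that leads cells to B cell follicles (1.69, 1.01 to 2.65), and Rgs10, a brake on G protein signalling (1.56, 1.09 to 2.16). In Cxcr5 14 of the 18 other families overlapped this one. Among the homing genes S1pr4, a receptor for sphingosine 1-phosphate, was at 1.58 (0.92 to 2.55), and Cd44 was lower (0.29, 0.06 to 0.83, from 3 UMIs). Tcf7 was at 1.49 (1.18 to 1.85). Of 4 countable inhibitory receptors Lag3 (0.37, 0.16 to 0.73) and Ctla4 (0.43, 0.14 to 1.01) were lower, beside 12.2% of all countable genes. Lag3 was at its lowest in this family, with 11 others above its interval.

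Of 5 countable interferon response genes 4 were lower, beside 12.2% of all countable genes, with a median of 0.60, but Ly6a was the one of these whose interval stayed below 1. Fos (0.49, 0.30 to 0.76) and Fosb (0.48, 0.19 to 1.00), early genes of the AP-1 factor, were lower among 12 AP-1 and heat shock genes, and the activation marker Cd69 was at 0.49 (0.23 to 0.90). Ifngr1, the interferon gamma receptor, was at 0.35 (0.10 to 0.91) from 4 UMIs, and the chemokine Xcl1 at 0.43 (0.17 to 0.89). Of 11 antigen presentation genes 2 were lower, the immunoproteasome subunits Psmb9 (0.67, 0.43 to 0.98) and Psmb10 (0.60, 0.32 to 1.03).

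Set directly against each other, 441 of 2499 genes (17.6%) were at least 1.5-fold higher in the TRBV12-2 TRBJ1-1 family and 452 (18.1%) at least 1.5-fold lower, with a median of 0.99. Wasf2 was 6.42-fold higher in it (3.95 to 11.1) and Mt1 7.33-fold (2.69 to 28.0). Cd8a was 3.12-fold higher (1.51 to 7.26), Cd8b1 2.23-fold, and Eef2 2.53-fold (1.73 to 3.80). Il7r was 7.64-fold higher (1.90 to 66.5), with 25 UMIs against 2, and Ly6a 11.6-fold (1.85 to 482), with 19 against 1. Of 9 countable interferon response genes 7 were higher in the TRBV12-2 TRBJ1-1 family and 0 lower, with a median of 2.06. The intervals of 3 of them lay above 1, those of Igtp, Tgtp2 and Ly6a.

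On the other side, Ptch1 had a ratio of 0.274 (0.131 to 0.544), and Rinl, a Rab exchange factor, stood at 319 CPM in the TRBV12-2 TRBJ1-1 family against 860 in the other (0.371, 0.254 to 0.538). Psip1, a chromatin tether, was at 0.353 (0.209 to 0.585), Itsn2, an endocytosis scaffold, at 0.167 (0.0553 to 0.424) and Trac at 0.47. Against the pooled other TRB cells both families had more Sostdc1 and less Gzmk, Ctla2a and Cd44, though between 11 and 15 of the other 18 families overlapped theirs in the last 3 genes. Set against each other they differed beyond counting error in many of the genes given here. Among these were Wasf2, Ptch1, the CD8 coreceptor, Eef2 and the interferon response genes Igtp, Tgtp2 and Ly6a. The difference in depth between them, a median of 2251 against 1732.5 UMIs, and the larger ribosomal share of the first stand beside these ratios, and their part in them was not tested.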

How the data were processed

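The deposited RNA matrix holds whole UMI counts per gene and barcode, not normalized by the authors. The deposited receptor tables give UMI and read counts for each contig, and for each clonotype a count of barcodes with its percent as rounded by the authors, which was not used here. Per the submitters' processing notes, cutadapt 1.17, STAR 2.6.1a, featureCounts 2.0.1 and the build GRCm38 were used, with no role or order; no source used here names the receptor assembler. The barcodes of the 2 libraries were joined: 4590 of the 5479 receptor barcodes were in the RNA library. A filter of at least 200 genes and a mitochondrial share under 20% left 10338 of 10387. Doublets were not called, and the 244 RNA barcodes with 2 or more productive TRB were left out by the choice of members. Summed UMIs over the family and over all other kept cells with exactly 1 TRB gave levels per 1000000 UMIs (CPM) and their ratio.

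Sums have exact Poisson, ratios exact conditional binomial and shares exact Clopper-Pearson 95% intervals. PCR and library effects are outside these. For genes with 0 UMIs in the family the bound was taken from a floor of 3 counts over its cells. A gene was countable with at least 10 expected UMIs and called at 1.5-fold by its point ratio. Named genes are the 15 higher ones with the highest lower bound (at least 10 UMIs in at least 5 cells of the family) and the 10 lower ones with the lowest upper bound, without receptor segment, immunoglobulin and haemoglobin genes. Genes of the fixed lists, and those of the receptor and WAVE complex, were named besides. Families of at least 30 cells were ranked by level. Thinning took 1000 UMIs per cell with seed 1. Alternatives were another filter, other weights and totals, cells left out, and the TRA carried. The scripts were tested on simulated data and used python 3.11.15, numpy 2.4.6, scipy 1.17.1, pandas 2.3.3 and matplotlib 3.10.9. The members and the gene lists were chosen with earlier results of these data known. Results for some genes are not reported here.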

Additional observations from a re-analysis of the deposited data

Results flagged for a closer look

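Outside the cells compared above, 8 kept barcodes carried 2 productive TRB chains, 1 of them that of the TRBV12-2 TRBJ1-1 family, and the TRBV13-3 TRBJ2-7 family had 0 such barcodes. In these 8, Wasf2 stood at 711 CPM (389 to 1193), from 14 UMIs in 4 cells, against 152 CPM in the other TRB cells. Sostdc1 had 1 UMI and Mt1 had 0. Trbc1 made up 44.6% (35.2 to 54.3) of their Trbc1 and Trbc2 UMIs, against 79.4% to 85.3% in the cells of the family with that TRB alone. Trac stood at 2337 CPM (1711 to 3117).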

How the results depend on the processing

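No paired analysis was possible because neither the RNA nor the receptor library has a replicate. The counts of genes past 1.5-fold moved under several settings. For the TRBV12-2 TRBJ1-1 family the 129 higher genes became 44 without the cell with most UMIs of the gene, 38 with at least 20 expected UMIs and 61 in the cells with the printed TRA, and the 389 lower ones became 706, 123 and 119. An alternative chosen after seeing the data, the family's cells without the printed TRA, gave 257 lower ones. For the TRBV13-3 TRBJ2-7 family the 73 higher genes became 27, 15 and 44 under the same settings and 23 without the printed TRA, and the 184 lower ones 368, 51, 122 and 43. Leaving out the top cell of each gene takes UMIs of that gene from the family alone, and the stricter minimum leaves fewer genes. The splits by TRA also left fewer countable genes. The first family had 2575 countable genes, but 799 with the printed TRA and 1593 without it. For the second these numbers were 1504, 901 and 434. Any further cause of the shifts was not tested.

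The Mt1 ratio of 12.9 became 18.1 with other families weighted equally, 5.70 without its top cell, 0 with the printed TRA and 20.1 without the printed TRA. The 0 comes from 24 cells whose interval reached 68.3 CPM, against 24.9 CPM in the other TRB cells, so it does not settle a direction. In the TRBV12-2 TRBJ1-1 family Sostdc1 at 2.94 became 2.00 with equal weights, 2.30 without the 2 largest families, 4.97 with the printed TRA and 1.80 without it, and its rank went from 3 to 4 over families of at least 20 cells. Wasf2 at 8.28 became 10.6 with the printed TRA and 6.97 without it, and the share of cells with a Wasf2 UMI went from 88.1% to 60.7% after thinning. In the TRBV13-3 TRBJ2-7 family Sostdc1 at 3.27 became 2.28 with equal weights, and its share of cells went from 50% to 35.4% after thinning. Vps26b went from 3.70 to 0.975 without the printed TRA, a ratio from few cells and UMIs that does not settle its direction. Of 198 further values for 22 named genes of the first family, 187 stayed within their interval and on their side and 11 moved, and of 207 values for 23 genes of the second, 191 stayed and 15 moved besides Vps26b. With 59 and 50 cells of 1 library, genes below about 10 expected UMIs and any spread between mice are out of reach.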
